A study of Bos taurus with 14 samples.

Results

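The genes of the proteasome were compared in the *longissimus dorsi* (LD) muscle of cattle from contrasting production systems. They were taken as every probe set of the Affymetrix Bovine array with a single gene symbol that starts with PSMA, PSMB, PSMC, PSMD or PSME and goes on with a digit. The rule found 42 probe sets of 36 genes, out of 9155 genes with a single symbol on the array and 24016 probe sets tested. Each gene is given by 1 probe set, the one with the highest mean over the 14 arrays. Of the 36 genes, 35 code for subunits, activators or assembly factors of the proteasome, and *PSME3IP1* is a binding partner whose symbol happens to fit the rule.

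The animals were Charolais × Limousin heifers allotted at random to an outdoor/pasture-fed group (n = 7 arrays) or an indoor/concentrate-fed group (n = 7 arrays). The first grazed a grass and clover sward, and the second was housed permanently on a barley and beet pulp concentrate with straw, in both cases up to slaughter. Muscle was taken soon after death. Housing, activity and diet changed together between the systems and cannot be told apart in this design. The study's methods describe several management groups within each system, which the labels do not give, so each array was treated as an independent animal.

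The proteasome is the protease complex that degrades proteins tagged with ubiquitin, and in skeletal muscle it removes much of the contractile and regulatory protein that is turned over. A barrel-shaped core of stacked alpha and beta rings holds the active sites on its inner face, and a regulatory particle made of a base and a lid recognises, unfolds and strips ubiquitin from the substrate. Alternative activators can bind the core in place of that particle, and under inflammatory signals the active beta subunits can be replaced by immunoproteasome counterparts that change which peptides are cut.

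Expression values are the deposited log2 values, and each difference is outdoor/pasture-fed minus indoor/concentrate-fed, so a negative value is a lower level at pasture. The summarisation method used for these arrays leaves many probe sets almost constant, and 30 of the 36 genes varied (SD over 14 arrays above 0.01). *PSMA4*, *PSMB7*, *PSMC6*, *PSMD6*, *PSMD9* and *PSME4* did not vary, and for these the values hold no measurable spread between animals. The 14 array medians lay between 6.77 and 6.84. The skeletal fibre markers that were measured (12 of 15 listed, among them actin, myosin heavy chain and troponin genes) had a mean log2 level of 13.77 to 13.80 in the outdoor/pasture-fed and 13.68 to 13.80 in the indoor/concentrate-fed arrays, as the tissue label says. In bulk muscle, fewer cells of a type and less RNA per cell cannot be told apart.

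No proteasome gene passed the adjusted threshold of 0.05 in limma over all 24016 probe sets, where 4 probe sets (0.0167%) did. None passed when limma was fitted to the 9623 varying probe sets alone, where 33 (0.343%) did. At an unadjusted p under 0.05, 11 of the 36 genes (30.6%) were lower in the outdoor/pasture-fed group, against 6.07% of all probe sets, and 1 was higher, against 5.35%. The single higher gene was *PSME4*, one of the genes that did not vary, with a difference of 3.67e-05. The fit to the varying probe sets gave 9 genes lower, beside 10.4% of the probe sets in that fit, and 0 higher, beside 9.21%. Non-overlapping groups were seen in 0 of the 36 genes, beside 0.371% of all probe sets.

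The direction of the mean differences was not the same in every part of the complex. Of the 30 genes that varied, 27 had a lower mean in the outdoor/pasture-fed group and 3 a higher mean, while 52.5% of the varying probe sets had a difference below 0. All 26 varying genes of the core, base, lid, assembly factors and activators were among the 27, the other being *PSME3IP1*. Nearest to 0 lay *PSMD13*, with a difference of -0.00028, and *PSME2*, with -0.012. The 3 genes with a higher mean were the immunoproteasome subunits *PSMB8*, *PSMB9* and *PSMB10*. Many of the 26 genes moved together by animal. Outdoor/pasture-fed replicates 3 and 5 were below the gene mean in 24 and 25 of them. Indoor/concentrate-fed replicate 5 was below it in 21 and replicate 7 in 3, while outdoor/pasture-fed replicate 6 was below it in 13. The genes are therefore not separate observations. Counts of lower genes, here and at an unadjusted p under 0.05, are a description with no test. The median difference was -0.08 in the core (13 genes), -0.15 in the base (9 genes), -0.07 in the lid (4 genes), -0.13 in the assembly factors (3 genes), -0.012 in the activators (3 genes) and 0.25 in the immunoproteasome (3 genes). Genes that did not vary have differences near 0 and pull these medians towards 0. Among varying genes the median was -0.09 in the core (11 genes), -0.19 in the base (8 genes) and -0.14 in the lid (3 genes). It was -0.28 in the assembly factors (2 genes) and -0.094 in the activators (2 genes). Over all 24016 probe sets the median difference was -4.9e-07, and over the varying probe sets it was -0.0077.

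**Figure D1:**
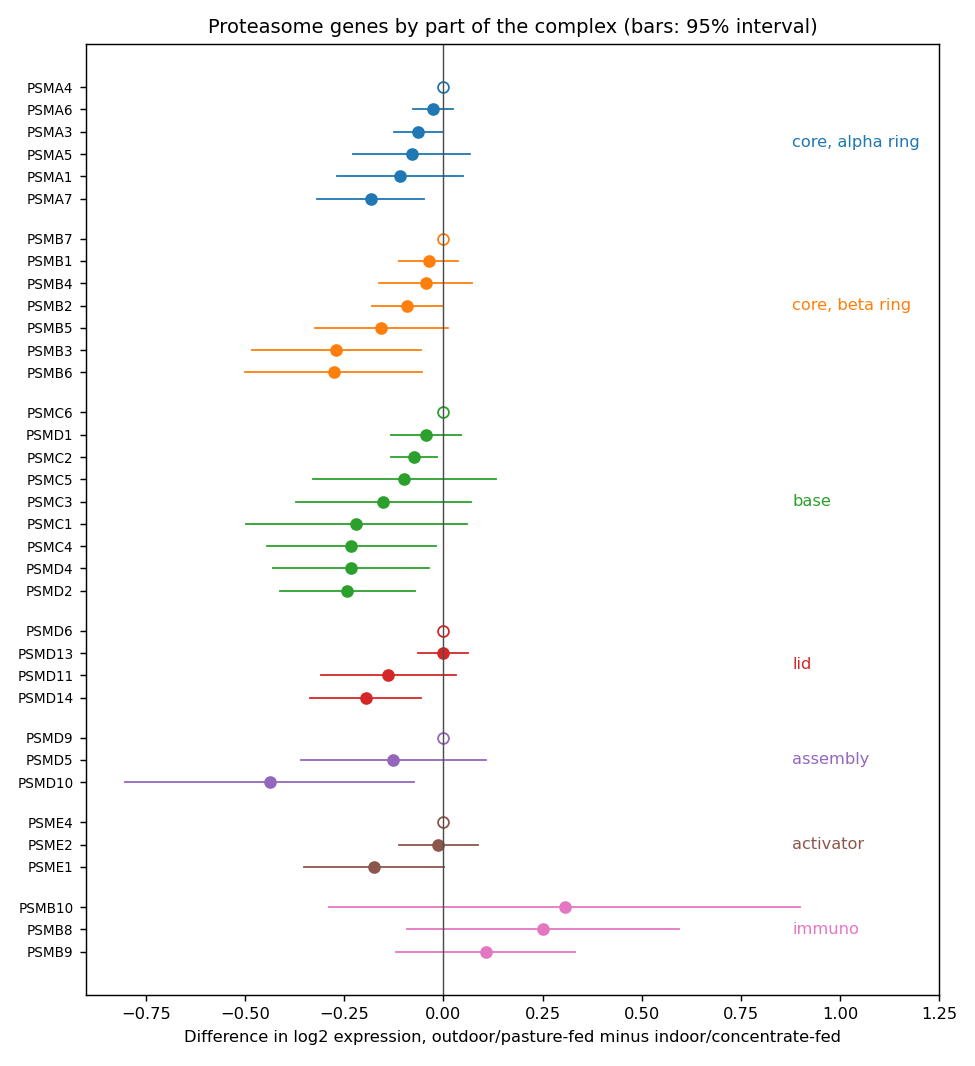
Difference in log2 expression (horizontal axis, outdoor/pasture-fed minus indoor/concentrate-fed) of 35 proteasome genes, grouped by part of the complex; points are means of 7 minus 7 arrays, bars are 95% intervals, and open circles are the 6 genes that did not vary. The filled points of the core, base, lid, assembly and activator groups lie at or left of 0, and the 3 immunoproteasome genes lie right of 0 with intervals that include 0.

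In the alpha ring, which forms the outer gate of the core, 2 of 6 genes had an unadjusted p under 0.05. *PSMA7*, an alpha ring subunit, ran from 12.21 through a median of 12.50 to 12.56 in the outdoor/pasture-fed arrays and from 12.50 through 12.61 to 12.81 in the indoor/concentrate-fed arrays. All 7 outdoor/pasture-fed arrays were below the indoor/concentrate-fed median, and the ranges overlapped only between 12.50 and 12.56. The difference was -0.18 (SE 0.06), a level 11.9% lower, with an adjusted p of 0.288 in limma and p = 0.0105 in a two-sided exact permutation test. The exact permutation p-values, here and for the genes below, are not adjusted. Most of these genes were named for a small limma p in the same arrays, so a small permutation p is no independent support.

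*PSMA3*, another alpha ring subunit, ran from 11.82 through 11.92 to 11.97 at pasture and from 11.89 through 11.96 to 12.05 indoors. The groups overlapped between 11.89 and 11.97, 6 of 7 outdoor/pasture-fed arrays lay below the indoor/concentrate-fed median, and the difference was -0.06 (SE 0.03, limma adjusted p = 0.428, exact permutation p = 0.0507). The other varying genes of the ring were *PSMA1* at -0.11 (95% interval -0.27 to 0.05), *PSMA5* at -0.08 (-0.23 to 0.07) and *PSMA6* at -0.03 (-0.08 to 0.02). *PSMA4* was constant at 11.17.

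The beta ring carries the active sites. *PSMB6*, the caspase-like catalytic subunit, ran from 9.61 through 10.21 to 10.42 at pasture and from 10.24 through 10.46 to 10.51 indoors. Every outdoor/pasture-fed array was below the indoor/concentrate-fed median, and outdoor/pasture-fed replicate 5 stood apart at the low end. The difference was -0.28 (SE 0.10), or 17.4% lower, with a limma adjusted p of 0.331 and an exact permutation p of 0.0058, and without that replicate it was -0.19.

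*PSMB3*, a beta ring subunit without an active site, ran from 11.66 through 11.97 to 12.16 at pasture and from 11.99 through 12.09 to 12.40 indoors. Indoor/concentrate-fed replicates 2, 3 and 7 held the upper end above every outdoor/pasture-fed array, and 6 of 7 outdoor/pasture-fed arrays were below the indoor/concentrate-fed median. Its difference was -0.27 (SE 0.10), or 17.0% lower, with a limma adjusted p of 0.318 and an exact permutation p of 0.0227.

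*PSMB2*, likewise without an active site, ran from 10.17 through 10.28 to 10.36 at pasture and from 10.25 through 10.37 to 10.50 indoors, with all 7 outdoor/pasture-fed arrays below the indoor/concentrate-fed median. Its difference was -0.09 (SE 0.04, limma adjusted p = 0.426, exact permutation p = 0.0472), and a second *PSMB2* probe set gave -0.17 (SE 0.06). *PSMB5*, the chymotrypsin-like catalytic subunit, ran from 11.24 through 11.42 to 11.60 at pasture and from 11.40 through 11.58 to 11.82 indoors. The *PSMB5* ranges shared the stretch from 11.40 to 11.60, and the difference was -0.16 (SE 0.08, limma adjusted p = 0.471, exact permutation p = 0.0670). *PSMB1* and *PSMB4*, structural members of the ring, were at -0.04 (-0.11 to 0.04) and -0.04 (-0.16 to 0.07), and *PSMB7*, the trypsin-like catalytic subunit, was constant at 12.25.

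In the base, 4 of 9 genes had an unadjusted p under 0.05. *PSMD2* codes for a scaffold on which ubiquitin shuttle factors dock. It ran from 10.48 through 10.71 to 10.88 at pasture and from 10.61 through 10.98 to 11.08 indoors, and all 7 outdoor/pasture-fed arrays were below the indoor/concentrate-fed median. Indoor/concentrate-fed replicates 5 and 6 lay within the outdoor/pasture-fed range. The difference was -0.24 (SE 0.08), or 15.4% lower, with a limma adjusted p of 0.272 over all probe sets and 0.125 over the varying ones, and an exact permutation p of 0.0128.

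*PSMD4*, a ubiquitin receptor of the base, ran from 11.95 through 12.31 to 12.36 at pasture and from 12.22 through 12.45 to 12.68 indoors. All 7 outdoor/pasture-fed arrays were below the indoor/concentrate-fed median, while indoor/concentrate-fed replicates 5 and 6 lay within the outdoor/pasture-fed range. Its difference was -0.23 (SE 0.09, limma adjusted p = 0.348, exact permutation p = 0.0262), and a second probe set of the gene gave -0.24 (SE 0.10).

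The ATPases of the base unfold the substrate and thread it into the core. *PSMC4* ran from 9.39 through 9.82 to 9.97 at pasture and from 9.80 through 9.95 to 10.29 indoors, a difference of -0.23 (SE 0.10, limma adjusted p = 0.391, exact permutation p = 0.0338). *PSMC2* ran from 12.41 through 12.50 to 12.60 at pasture and from 12.53 through 12.58 to 12.64 indoors, a difference of -0.07 (SE 0.03, limma adjusted p = 0.304, exact permutation p = 0.0157). For both ATPase genes 6 of 7 outdoor/pasture-fed arrays were below the indoor/concentrate-fed median and outdoor/pasture-fed replicate 5 was the lowest of the 14 arrays. A second probe set of *PSMC2* was constant.

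Of the remaining base genes, *PSMC1* was at -0.22 (-0.50 to 0.06), *PSMC3* at -0.15 (-0.37 to 0.07), *PSMC5* at -0.10 (-0.33 to 0.13) and *PSMD1*, a scaffold subunit, at -0.04 (-0.13 to 0.04). *PSMC6* was constant at 11.75 on its brighter probe set, and its second probe set, which varied, gave -0.04 (SE 0.07).

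In the lid, *PSMD14* codes for the metalloprotease that cuts ubiquitin chains off the substrate. It ran from 11.08 through 11.26 to 11.34 at pasture and from 11.20 through 11.46 to 11.56 indoors. Every outdoor/pasture-fed array lay below the indoor/concentrate-fed median, and indoor/concentrate-fed replicates 5 and 6 lay within the outdoor/pasture-fed range. The difference was -0.20 (SE 0.06), or 12.7% lower, with a limma adjusted p of 0.276 and an exact permutation p of 0.0122. The lid scaffold genes *PSMD11* and *PSMD13* were at -0.14 (-0.31 to 0.03) and -0.00028 (-0.06 to 0.06), and *PSMD6* was constant on both of its probe sets.

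The difference farthest from 0 among the 36 genes was that of *PSMD10*, which codes for an ankyrin repeat chaperone that helps to assemble the base and is not kept in the finished complex. *PSMD10* ran from 8.16 through 8.38 to 8.53 at pasture and from 8.38 through 8.67 to 9.49 indoors. The indoor/concentrate-fed arrays were the more scattered, with an SD of 0.43 against 0.13, and indoor/concentrate-fed replicates 2, 3 and 7 were the highest. The difference was -0.44 (SE 0.17), or 26.2% lower, with a limma adjusted p of 0.341 and an exact permutation p of 0.0140. *PSMD5*, another base chaperone, was at -0.13 (-0.36 to 0.11), and *PSMD9*, also a base chaperone, was constant at 9.40.

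**Figure D2:**
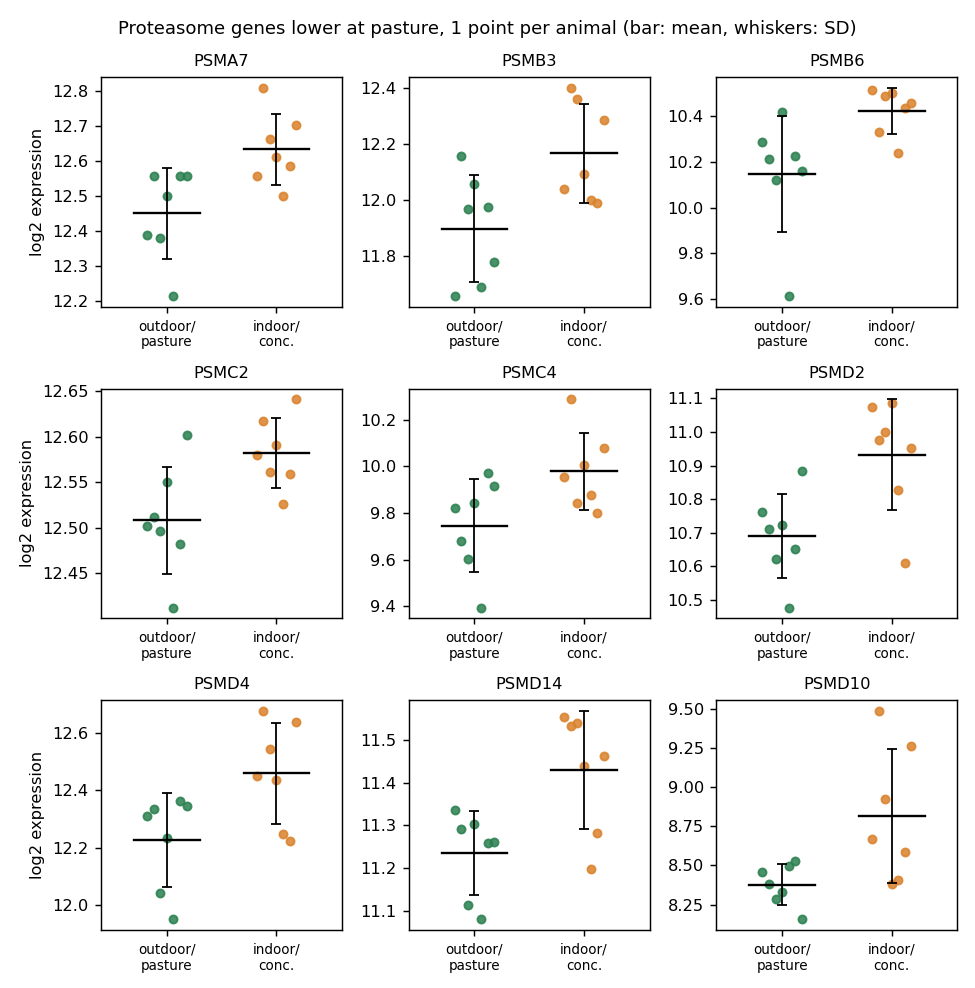
Log2 expression (vertical axis, a separate scale for each gene) of 9 proteasome genes lower at an unadjusted p under 0.05, with 1 point per animal, bars at the mean and whiskers of 1 SD (n = 7 per group). The groups overlap in each panel, *PSMA7* by the narrowest stretch, from 12.50 to 12.56.

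The activators bind the ends of the core without needing ubiquitin. *PSME1*, which forms an interferon-induced activator ring together with *PSME2*, ran from 11.23 through 11.44 to 11.60 at pasture and from 11.35 through 11.57 to 11.88 indoors. Indoor/concentrate-fed replicate 4 was the highest array and outdoor/pasture-fed replicate 4 the lowest, and the difference was -0.17 (SE 0.08, limma adjusted p = 0.446, exact permutation p = 0.0513). Its partner *PSME2*, 2 genes away on the chromosome in the ARS-UCD2.0 annotation, was at -0.012 (-0.11 to 0.09), and *PSME4*, a nuclear activator, was constant at 12.74. *PSME3IP1*, the binding partner, was at -0.06 (-0.25 to 0.12).

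The immunoproteasome subunits replace the constitutive catalytic subunits in newly made cores, and leukocytes express them at rest. *PSMB8*, the counterpart of *PSMB5*, ran from 7.69 through 8.05 to 8.46 at pasture and from 7.37 through 7.78 to 8.25 indoors, a difference of 0.25 (SE 0.16, limma adjusted p = 0.591, exact permutation p = 0.140). *PSMB9*, the counterpart of *PSMB6*, ran from 6.53 through 6.74 to 6.98 at pasture and from 6.38 through 6.61 to 6.93 indoors, a difference of 0.11 (SE 0.10, limma adjusted p = 0.760, exact permutation p = 0.319). The groups overlapped over most of their range for both genes, and indoor/concentrate-fed replicates 4 and 6 lay among the upper outdoor/pasture-fed arrays. The mean *PSMB9* levels, 6.73 at pasture and 6.63 indoors, lay below the array medians of 6.77 to 6.84.

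*PSMB10*, the counterpart of *PSMB7*, ran from 7.84 through 8.25 to 9.63 at pasture and from 7.68 through 7.88 to 8.77 indoors. Its highest value belonged to outdoor/pasture-fed replicate 7, and the next highest outdoor/pasture-fed array was at 8.48. The difference was 0.31 (SE 0.27, limma adjusted p = 0.736, exact permutation p = 0.314), and without that replicate it was 0.09, with an immunoproteasome median of 0.11.

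Across the 14 animals *PSMB8* and *PSMB9* moved together. Their Pearson correlation was r = 0.941 and Spearman's rho was 0.93, each with a permutation p of 1e-05, the smallest that 100000 resamples can give, and 3e-05 after Benjamini-Hochberg adjustment over the 3 pairs of immunoproteasome genes. Without the 2 animals farthest from the *PSMB8* median r was 0.908, and it was 0.897 within the outdoor/pasture-fed and 0.972 within the indoor/concentrate-fed group. In the ARS-UCD2.0 annotation these genes lie on either side of *TAP1*, the peptide transporter gene of the major histocompatibility complex.

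*PSMB10* followed neither of them closely. With *PSMB8* it had r = 0.323 (permutation p = 0.265, adjusted p = 0.27) and rho = 0.459 (permutation p = 0.101, adjusted p = 0.108), and r was 0.298 without the 2 animals farthest from the *PSMB8* median. With *PSMB9* it had r = 0.323 (permutation p = 0.27, adjusted p = 0.27) and rho = 0.451 (permutation p = 0.108, adjusted p = 0.108), and r was 0.295 without the 2 farthest from the *PSMB9* median. Outdoor/pasture-fed replicate 7, the highest array of *PSMB10*, was kept in both. Within groups r was 0.0323 and 0.0508 at pasture and 0.484 and 0.519 indoors.

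Because each immunoproteasome subunit takes the place of a constitutive one, the log2 value of the former minus that of the latter was formed in each array. These 3 pairs were chosen after the single values had been seen and are given as a description with no test. The pasture minus indoor difference in *PSMB8* over *PSMB5* was 0.41 (SE 0.16), a ratio 1.33 times as high at pasture, and all 7 outdoor/pasture-fed arrays were above the indoor/concentrate-fed median. For *PSMB9* over *PSMB6* it was 0.38 (SE 0.13), with 6 of 7 arrays above that median. For *PSMB10* over *PSMB7* it was 0.31 (SE 0.28), which is the *PSMB10* difference itself because *PSMB7* was constant. The groups overlapped in each pair.

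**Figure D3:**
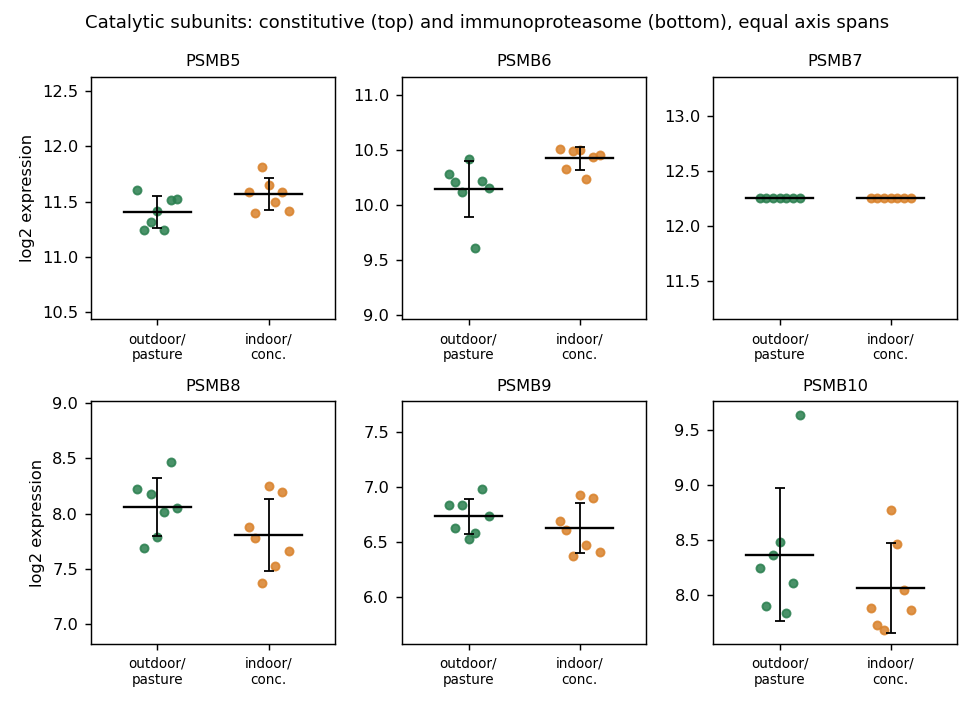
Log2 expression of the 3 constitutive catalytic subunits (top row) and their immunoproteasome counterparts (bottom row), with 1 point per animal, bars at the mean and whiskers of 1 SD (n = 7 per group); the axes differ in level and have the same span. *PSMB5* and *PSMB6* have lower and *PSMB8*, *PSMB9* and *PSMB10* higher means at pasture with overlapping groups, *PSMB7* is constant, and 1 outdoor/pasture-fed array of *PSMB10* stands at 9.63.

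Individual animals contributed unequally. Over the 26 varying constitutive genes (core, base, lid, assembly and activator), the median deviation of an array from the gene means ran from -0.21 through -0.03 to 0.01 in the outdoor/pasture-fed arrays and from -0.05 through 0.07 to 0.17 in the indoor/concentrate-fed arrays. Outdoor/pasture-fed replicate 5 was the lowest of all 14 arrays in 15 of the 26 genes and lay below the gene mean in 25. Indoor/concentrate-fed replicate 2 was the highest in 11 of the 26. Indoor/concentrate-fed replicates 5 and 6 were below the mean in 21 and 16 genes, so that they resembled the outdoor/pasture-fed arrays, whereas outdoor/pasture-fed replicates 6 and 7 were below it in 13 and 11.

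Outdoor/pasture-fed replicate 5 also had the highest array median, 6.84, where the other arrays lay between 6.77 and 6.80, and the highest mean level of the fibroblast markers, 12.17. Without it 9 proteasome genes in place of 11 were lower at an unadjusted p under 0.05, and the base median was -0.07 in place of -0.15. RNA degradation was looked at through the *GAPDH* control probe sets, as the signal at the 3' end minus that at the 5' end. This difference ran from -0.056 to 0.028 in the outdoor/pasture-fed and from -0.069 to 0.010 in the indoor/concentrate-fed arrays. For the actin control probe sets it was almost constant, at 0.520 in both groups. Whether either difference follows RNA degradation in these amplified and summarised values was not tested. With array median centring 11 proteasome genes were lower at an unadjusted p under 0.05, as in the main fit. With renewed quantile normalisation 10 were lower. The median difference over all proteasome genes was -0.081 and -0.078 in these settings, beside -0.077 in the main fit. The part of RNA quality in the proteasome differences was not tested.

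**Figure D4:**
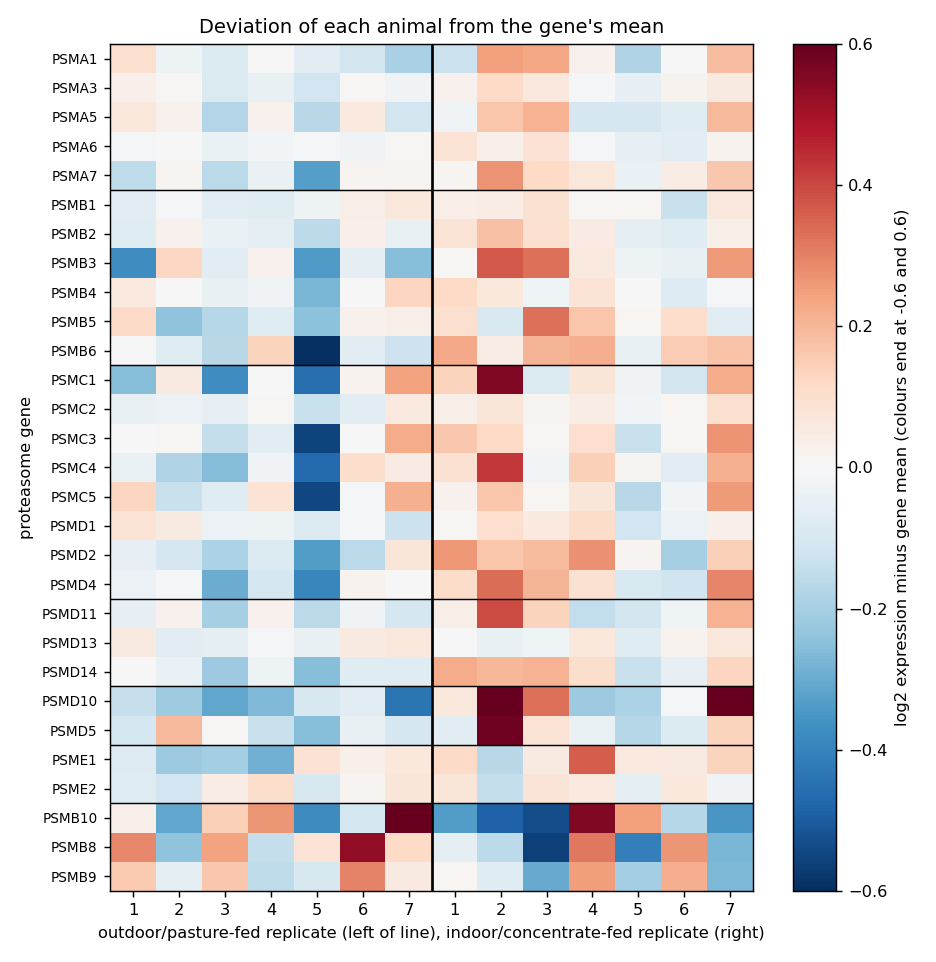
Deviation of each animal (columns, outdoor/pasture-fed left and indoor/concentrate-fed right of the line) from the gene's mean log2 expression, for the 26 varying constitutive and the 3 immunoproteasome genes (rows, in blocks by part of the complex); blue is below and red above the mean, with colours ending at -0.6 and 0.6. Outdoor/pasture-fed replicate 5 is blue in 25 of the 26 constitutive genes, indoor/concentrate-fed replicate 2 holds the highest value in 11 of them, and the immunoproteasome rows at the bottom follow another pattern.

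The other genes of the ubiquitin-proteasome pathway were read from lists of known components, by counts and medians without a list test, and no listed gene passed the adjusted threshold over all probe sets. Of 11 varying genes among other subunits, assembly chaperones and bound partners, 10 were lower at pasture and 1 was higher, 4 of the 15 measured genes were lower at an unadjusted p under 0.05 beside 6.07% of all probe sets, and the median of the varying genes was -0.09. *PSMG3*, a chaperone of core assembly, was at -0.21 (SE 0.05, limma adjusted p = 0.187, exact permutation p = 0.00291), with 6 of 7 outdoor/pasture-fed arrays below the indoor/concentrate-fed median. *AKIRIN2*, which is needed to bring proteasomes into the nucleus, was at -0.25 (limma adjusted p = 0.302). The other pair past the unadjusted threshold was *UBE3C*, a ligase bound to the proteasome, at -0.31 (adjusted p = 0.319 in limma) and *USP14*, a deubiquitinase bound to it, at -0.09 (adjusted p = 0.418 in limma), both named after their values were seen.

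Among regulators of proteasome genes, 7 of 8 varying genes were lower, and 2 of the 12 measured genes were lower at an unadjusted p under 0.05 beside 6.07% of all probe sets. One was *VCP*, an unfolding ATPase that delivers substrates and helps to activate *NFE2L1*, at -0.16 (limma adjusted p = 0.234, exact permutation p = 0.00291) with all 7 outdoor/pasture-fed arrays below the indoor/concentrate-fed median. The other was *NFYA*, a promoter-binding factor whose probe set did not vary (-1.15e-05). *NFE2L1* itself, the transcription factor that raises proteasome genes when proteasome activity falls short, was at -0.05 (limma adjusted p = 0.641) and was named after its value was seen.

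Upstream of the proteasome, the directions of the varying genes were mixed. At an unadjusted p under 0.05 in limma, 1 of the 9 measured ubiquitin, activating and shuttle genes was lower and 0 were higher. Of the 9 measured muscle ligases 2 were lower, *UBR4* and *TRIM54*, and 0 were higher. These counts stand beside 6.07% lower and 5.35% higher of all probe sets. Of 6 varying ubiquitin genes, activating enzymes and shuttle factors, 4 were lower and 2 higher, with *UBA6*, a ubiquitin-activating enzyme, at -0.10 (limma adjusted p = 0.388) and *UBQLN2*, a shuttle factor, at 0.12 (0.538). Of 18 varying E2 conjugating enzymes, 11 were lower and 7 higher, with an unadjusted p under 0.05 for 4 and 1 of the 26 measured, beside 6.07% lower and 5.35% higher of all probe sets. *UBE2E1* was at -0.24 with a limma adjusted p of 0.105 over all probe sets and 0.0471 over the varying ones, and *UBE2H* was at 0.20 (0.313). Of 8 varying ligases known from muscle, 3 were lower and 5 higher, with *UBR4* at -0.24 (0.345) and *TRIM54*, a sarcomere-bound ligase, at -0.45 (0.393). *FBXO32*, the muscle ligase known as atrogin and named after its value was seen, was at 0.02 (0.989).

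Among the other proteolytic systems, of 15 varying autophagy and lysosome genes, 8 were lower and 7 higher, with *ATG5* at -0.15 (limma adjusted p = 0.250) and *MAP1LC3B* at 0.14 (0.318), both needed to form autophagosomes. All 4 varying calpain and caspase genes were lower, with *CAPN2*, a calcium-dependent protease, at -0.53 (0.247) and *CAST*, its inhibitor, at -0.11 (0.486). The cytosolic ribosomal protein genes, another set of abundant subunit genes, had 25 of 38 varying genes lower and 13 higher, and a median of -0.0073 among those that varied. At an unadjusted p under 0.05, 1 of the 66 measured genes was lower, beside 6.07% of all probe sets, *RPL7L1* at -0.10 (0.288), and 1 was higher, *RPS19*, whose probe set did not vary (1.5e-05).

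**Figure D5:**
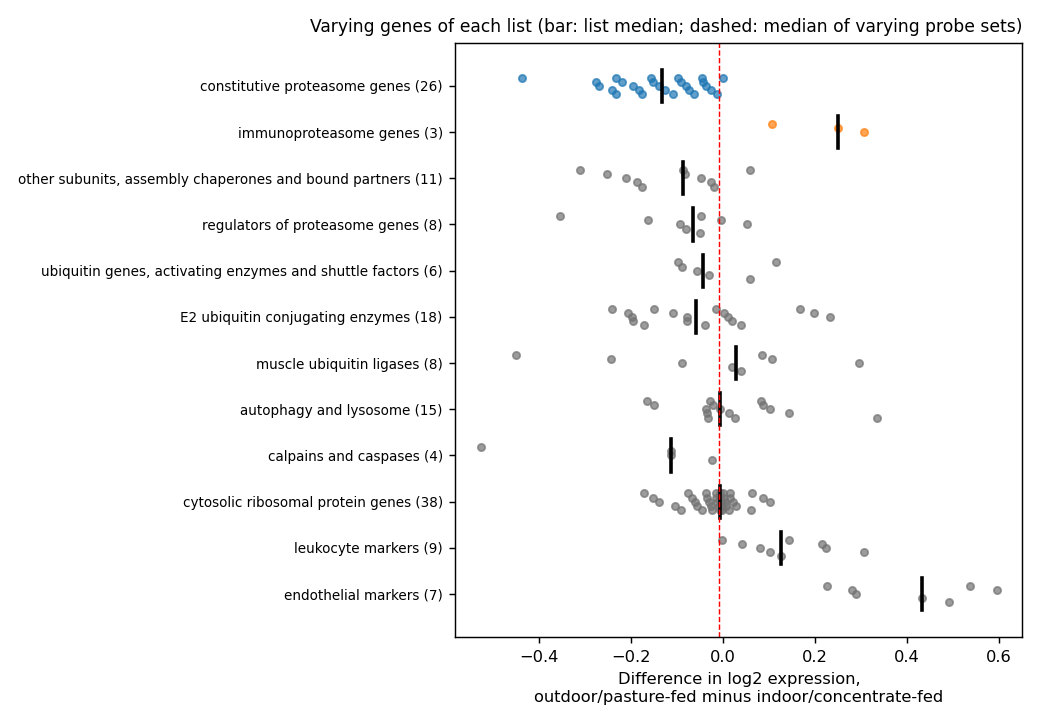
Difference in log2 expression (horizontal axis) of the varying genes in each list, 1 point per gene, with the list's median as a black bar and the median over the 9623 varying probe sets (-0.0077) as a dashed line; the number of varying genes stands in brackets. The constitutive proteasome genes lie at or left of 0, the ribosomal genes are centred on the dashed line, and the immunoproteasome, leukocyte and endothelial genes lie mostly right of it.

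Genes that act with the immunoproteasome in antigen processing, and interferon-induced genes, went in both directions, with 8 of 13 varying genes lower and 5 higher and an unadjusted p under 0.05 for 2 lower and 2 higher of the 16 measured, beside 6.07% and 5.35% of all probe sets. *CALR*, a chaperone of peptide loading, was at -0.36 (limma adjusted p = 0.214) with all 7 outdoor/pasture-fed arrays below the indoor/concentrate-fed median, and *MX2*, an interferon-induced gene, did not vary (1.21e-05). *CXCL10*, an interferon-induced chemokine named after its value was seen, was at 0.18 (limma adjusted p = 0.387) and *TAPBP*, a peptide loading factor likewise, at -0.25 (0.369). The neighbours of *PSMB8* and *PSMB9*, named for their position, were *TAP1* at 0.01 (0.991) and *TAP2* at 0.36 (0.470), both subunits of the peptide transporter.

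Marker genes of other cell types were read beside these values. Of the leukocyte markers, 8 of 9 varying genes were higher at pasture and 1 was lower, 1 of 12 measured genes was higher at an unadjusted p under 0.05 beside 5.35% of all probe sets, with *LAPTM5* at 0.21 (limma adjusted p = 0.432) and *CD3E* at 0.13 (0.562). Their summed level, as log2 of the sum of unlogged values, was 10.32 to 10.93 in the outdoor/pasture-fed and 10.02 to 10.82 in the indoor/concentrate-fed arrays, and *ITGAM*, *ITGB2* and *CD2* did not vary. The part of leukocyte content in the immunoproteasome values was not tested.

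All 7 varying endothelial markers, of 8 measured, were higher at pasture at an unadjusted p under 0.05. Over all probe sets 5.35% were higher at that threshold, and among the 9623 varying probe sets 888 were. *PECAM1* was at 0.54 (limma adjusted p = 0.147) and *CDH5* at 0.59 (0.200). The summed level of the 8 measured markers ran from 12.37 to 12.91 at pasture and from 11.74 to 12.39 indoors. *VWF* did not vary. The part of vessel content in the proteasome differences was not tested either.

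The other marker lists were less one-sided or small. The adipocyte markers had 5 genes lower and 1 higher (*LPL* at 0.58, limma adjusted p = 0.427, and *LEP* at -0.22, 0.656), and the fibroblast markers 3 lower and 4 higher (*DCN* at 0.21, 0.646, and *PDGFRA* at 0.14). Smooth muscle markers had 1 lower and 4 higher (*ACTA2* at 0.43, 0.524, and *TAGLN* at 0.15, 0.544), and red blood cell markers 2 lower and 0 higher (*AHSP* at -0.12, 0.505). Satellite cell markers had 2 lower and 0 higher (*MYF5* at -0.47, 0.498, and *NCAM1* at -0.10, 0.592), and skeletal fibre markers 3 lower and 4 higher (*MYH1* at 0.14, 0.148, and *TNNC2* at -0.015, 0.250).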

How the data were processed

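LD muscle RNA of 14 heifers, 7 from each production system, was hybridised to 1 array each. FARMS with quantile normalisation was run by the authors to make the deposited log2 values, which were used without further normalisation. FARMS shrinks probe sets without a shared probe signal to a constant, which affected 14393 of 24016 probe sets (59.9%). Quantile normalisation equalises the arrays, so differences are relative to the rest of each array. The FARMS version was not given in the sources used here, and the deposited values name no genome build, so no coordinates are printed. The 112 control probe sets were left out. Of the probe sets, 13292 have 1 gene symbol, 86 several and 10638 none, and all 36 proteasome genes matched the ARS-UCD2.0 table of gene names. *PSMA2*, *PSMA8*, *PSMB11*, *PSMD3*, *PSMD7*, *PSMD8*, *PSMD12* and *PSME3* had no probe set by name.

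Groups come from the labels. The comparison used limma 3.58.1 (lmFit, then eBayes; R 4.3.3) over all probe sets, with Benjamini-Hochberg adjustment at 0.05. Exact permutation tests were two-sided over all 3432 assignments of 14 arrays to 7 and 7, and the smallest p they can give is 0.000583. Their p-values were not adjusted, and most genes given one were named for a small limma p in the same arrays. The 11 proteasome genes named with full statistics are those with an unadjusted p under 0.05 in limma that varied, and in each part of the complex at least those with the 2 smallest p, the catalytic subunits and the genes that did not vary are named. In other lists the 2 genes with the smallest p are named. The fit was tested on simulated data. Alternatives were the varying probe sets, brighter probe sets, trended and robust priors, renewed quantile normalisation, median centring, array weights, a replicate block, other choices of probe set, and each array left out. The precision is limited by the number of arrays, and the p-values set each difference against the spread between these animals. Spread between management groups could not be modelled, since the labels do not give the groups. The proteasome genes and lists were chosen with earlier results of these data known. Promoter and protein sequences were not analysed here.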

Additional observations from a re-analysis of the deposited data

Results flagged for a closer look

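Within groups of 7 arrays, 60 groups of varying proteasome genes were screened for an array that stands apart from the rest of its group by Dixon's criterion, and 5 were found, where chance gives about 1 in 20. Outdoor/pasture-fed replicate 5 was the lowest of its group for *PSMB6* at 9.61, with the next array at 10.12, and for *PSMB4* at 11.57, with the next at 11.80. Outdoor/pasture-fed replicate 7 was the highest for *PSMB10* at 9.63, with the next at 8.48. Indoor/concentrate-fed replicate 2 was the highest for *PSMD5* at 10.21, with the next at 9.76. Indoor/concentrate-fed replicate 6 was the lowest for *PSMB1* at 11.78, with the next at 11.92.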

How the results depend on the processing

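The 15 proteasome genes recomputed by name gave 359 values over 24 alternative settings. Of these, 99 equal the reported difference because the setting changes only the test, or the probe set was the same, and the other 260 were recomputed with another value. The direction was kept in all 260, and 0 of the 359 passed the adjusted threshold. Each setting reused the same arrays with at most 1 left out, and most of these genes were named for a small p. A kept direction was therefore likely in advance and is no independent support. With 1 array left out in turn, 0 genes passed the adjusted threshold and 8 to 12 were lower at an unadjusted p under 0.05 (8 without outdoor/pasture-fed replicate 3), 1 to 1 higher, and 0 to 1 had groups that did not overlap (1, *PSMA7*, without indoor/concentrate-fed replicate 5, by a gap of 0.000446, where 0.625% of all probe sets did not overlap). The medians then ran from -0.10 to -0.054 over all 36 genes, from -0.10 to -0.057 in the core, from -0.20 to -0.072 in the base (-0.072 without outdoor/pasture-fed replicate 5), from -0.091 to -0.046 in the lid, from -0.038 to 3.7e-05 in the activators and from 0.11 to 0.32 in the immunoproteasome (0.11 without outdoor/pasture-fed replicate 7). The catalytic pairs ran from 0.29 to 0.47 for *PSMB8* over *PSMB5*, from 0.32 to 0.46 for *PSMB9* over *PSMB6* and from 0.095 to 0.42 for *PSMB10* over *PSMB7* (0.095 without outdoor/pasture-fed replicate 7), an alternative added after seeing the data, as was renewed quantile normalisation of these pairs (0.40, 0.37 and 0.30). The single higher gene, *PSME4*, was lost (0 higher) with varying probe sets only, probe sets with a mean above the median, the trended prior, renewed quantile normalisation and array median centring; *PSME4* does not vary, so the first of these omits it, and for the others the cause was not tested. With varying probe sets only, the lid median was -0.14 and the activator median -0.094, since the genes at 0 were left out. Array weights gave 9 lower genes and a median of -0.044 over the 36 genes, beside 11 and -0.077 in the main fit. The lowest weights fell on indoor/concentrate-fed replicate 2 (0.37) and outdoor/pasture-fed replicate 5 (0.45). These arrays were the most often highest and the most often lowest, respectively, among the constitutive genes. The labels do not say whether the replicate numbers pair the animals. Same-numbered arrays correlated at -0.18 to 0.24, over 0.1 in 2 of 7 pairs. Of the 7 outdoor/pasture-fed arrays, 2 correlated best with the indoor/concentrate-fed array of the same number. With the replicate block 11 genes were lower, as without it. *PSMB9* was at 0.065 without indoor/concentrate-fed replicate 3. The deposited values hold no detection calls, so the signal over background of each probe set is unknown.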
